A study of Mus musculus with 7 samples.

Results

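The miR-15/16 family is a group of miRNAs that carry the same seed, the short stretch near the 5′ end by which a miRNA finds its target mRNAs. Its 6 members here, mmu-miR-16-5p, mmu-miR-15a-5p, mmu-miR-15b-5p, mmu-miR-195a-5p, mmu-miR-497a-5p and mmu-miR-322-5p (written below without the species prefix), were chosen by name among 820 miRNAs and all 6 had a value. They were measured in extracellular vesicles, membrane particles shed by cells, from epididymal white adipose tissue (eWAT), a visceral fat depot. The HFD+Ni group (3 libraries) came from ApoE-/- mice given a high-fat diet together with nicotine at 2 mg/kg/day, and the HFD group (4 libraries) from ApoE-/- mice given the high-fat diet alone. All were male, 8 weeks old per the labels and treated for 12 weeks. Both groups lack ApoE, a lipoprotein ligand whose loss leads to atherosclerosis in mice, so no library comes from a mouse with ApoE or on normal chow. How many animals stand behind a library is not stated, and the p-values therefore measure the spread between libraries, which may be partly technical.

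Members of the family repress genes that drive the cell cycle, among them D-type and E-type cyclins, and the survival factor Bcl2. Human chronic lymphocytic leukaemia often loses the locus of miR-15a and miR-16-1, which made the family known as a brake on proliferation. In fat biology, miR-15a has been tied to the differentiation of mouse preadipocytes. miR-16 is also abundant in red blood cells, and miR-322, the mouse counterpart of human miR-424, has been described in endothelium.

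The mature sequences, from RefSeq on GRCm38.p6, are printed because the capitals, bases 2 to 8, are what defines the family, while the tails tell the members apart. The table matched 6 of the 6 members.
miR-16-5p: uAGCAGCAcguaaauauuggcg
miR-195a-5p: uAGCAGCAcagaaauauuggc
miR-15a-5p: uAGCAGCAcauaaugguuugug
miR-15b-5p: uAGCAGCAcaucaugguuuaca
miR-497a-5p: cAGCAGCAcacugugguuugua
miR-322-5p: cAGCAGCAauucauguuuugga
Counted from the 5′ end, miR-16-5p and miR-195a-5p are the closest pair, with 2 differences over 21 bases (G10A and U11G from miR-16-5p to miR-195a-5p). miR-15a-5p and miR-15b-5p differ at 4 of 22 bases (A12C, G20A, U21C and G22A from miR-15a-5p to miR-15b-5p). How the authors assigned reads that fit more than 1 member was not examined here. No member had near-equal reads with any other miRNA in all libraries (within 5% or 2 reads in each). The same seed occurs in 10 mature mouse names of that RefSeq table. The other 4 (miR-195b, miR-6342, miR-6353 and miR-6419) were not analysed here.

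The members come from paired loci. On GRCm38, Mir15a (chr14:61632027-61632110) and Mir16-1 (chr14:61631880-61631972) lie 54 bases apart on the minus strand in the long non-coding gene Dleu2, Mir15a in an intron and Mir16-1 overlapping an annotated exon. Mir15b (chr3:69009772-69009835) and Mir16-2 (chr3:69009902-69009996) lie 66 bases apart in an intron of Smc4, which encodes a chromosome condensation protein. Mir497 (chr11:70234717-70234800) and Mir195a (chr11:70235042-70235135) are 241 bases apart, and Mir322 (chrX:53054255-53054349) is 200 bases from Mir503. GENCODE M21 places no gene of another class around the chromosome 11 and X loci. The hairpins of both miR-16 loci are shown, arms in capitals, since they give an identical 5′ arm and their reads cannot be assigned to a locus.
Mir16-1: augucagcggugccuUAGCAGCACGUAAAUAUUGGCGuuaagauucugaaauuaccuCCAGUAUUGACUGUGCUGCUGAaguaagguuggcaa
Mir16-2: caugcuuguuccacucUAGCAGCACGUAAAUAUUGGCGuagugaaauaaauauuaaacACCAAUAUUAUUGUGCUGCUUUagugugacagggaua

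Levels are in rpm, which sets the miRNA reads of every library to a total of 1000000. The reads assigned to miRNAs totalled 53626 (HFD+Ni replicate 1) to 1055902 (HFD replicate 2). Thus 1 read equals 18.6 rpm in the shallowest library and 0.947 rpm in the deepest. Some related miRNAs had the same or nearly the same reads in each library, such as miR-10a-5p and miR-10b-5p (1011 each in HFD+Ni replicate 1). A read may therefore be counted under more than 1 name, in these totals and in shares of them. HFD+Ni replicate 1 stood apart. Its 6 epithelial marker miRNAs summed to 45146 rpm, against at most 13605 rpm in any other library, and 9 of the 156 miRNAs that averaged 100 rpm or more had no read in it, against 0 to 2 in each other library. The fat marker list was present in every library (summed 8783 to 18359 rpm in HFD+Ni and 12980 to 17385 rpm in HFD). Most of that sum was miR-26b-5p in each library (6788 rpm in HFD+Ni replicate 1). Another of the list, miR-193b-3p, an adipocyte miRNA, was listed at 0 in 4 of 7 libraries. In HFD+Ni replicate 1, miR-365-3p was at 541 rpm, against 1487 to 2996 rpm elsewhere. There miR-378a-3p was at 1119 rpm, against 2486 to 3967 rpm elsewhere. miR-196a-5p, at 280 rpm there, was within the range of the other libraries. Fewer vesicles from a cell type and less of a miRNA per vesicle cannot be told apart in such bulk libraries.

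Taken as a sum, the family made up 1.07%, 1.23% and 2.11% of the miRNA reads in HFD+Ni replicates 1 to 3, against 1.46%, 1.74%, 1.45% and 2.41% in HFD replicates 1 to 4. The 95% exact binomial intervals ran from 0.983% to 1.16% for the lowest library, HFD+Ni replicate 1, and from 2.30% to 2.52% for the highest, HFD replicate 4. The summed level averaged 14663 ± 5589 rpm in HFD+Ni (SD, n = 3) and 17635 ± 4509 rpm in HFD (SD, n = 4), and the groups overlapped. The log2 ratio of these means was -0.27, and it was -0.08 without HFD+Ni replicate 1, -0.15 without HFD+Ni replicate 2, -0.62 without HFD+Ni replicate 3 and -0.08 without HFD replicate 4. HFD+Ni replicate 3 and HFD replicate 4 had the highest family share of their groups.

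miR-16-5p carried most of the family. It took 84.0% ± 8.46 of the family's reads in HFD+Ni (SD, n = 3) and 83.0% ± 5.05 in HFD (SD, n = 4). Its level was 9231, 9148 and 19177 rpm in HFD+Ni replicates 1 to 3, against 12052, 14159, 11289 and 21669 rpm in HFD replicates 1 to 4. HFD+Ni replicate 3 and HFD replicate 4 were the high libraries, so the groups overlapped. miR-16-5p ranked between 10 and 22 among the miRNAs of a library. The spread within HFD+Ni (a coefficient of variation of 46.1%) and within HFD (32.1%) was far above counting error (2.93% and 2.48%). Its log2 fold change was -0.28 (SE 0.31, 95% interval -0.95 to 0.39, limma adjusted p = 0.830). This interval allows both a fall and a smaller rise. Without HFD+Ni replicate 3 the log2 fold change was -0.64 (limma unadjusted p = 0.0444, adjusted p = 0.800), whereas it was -0.11 without HFD+Ni replicate 1, -0.10 without HFD+Ni replicate 2 and -0.08 without HFD replicate 4.

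Red blood cell miRNAs are given beside it because erythrocytes are rich in miR-16. The 4 erythrocyte markers with a value, of 5 listed (miR-451a, miR-144-3p, miR-144-5p and miR-486b-5p), summed to 0, 489 and 1031 rpm in HFD+Ni replicates 1 to 3, against 297, 1273, 196 and 571 rpm in HFD replicates 1 to 4. All 4 were unread in HFD+Ni replicate 1, where 3 reads are worth 55.9 rpm, and miR-16-5p stood at 9231 rpm in that library. However, miR-144-3p reached at most 7.58 rpm and miR-144-5p at most 18.6 rpm in any library. As 1 read is worth 18.6 rpm in HFD+Ni replicate 1, their absence there says little. HFD+Ni replicate 3, the library highest in miR-16-5p in its group, was also the highest in the erythrocyte sum there, whereas HFD replicate 4, the highest in miR-16-5p in HFD, was second to HFD replicate 2 in that sum. HFD+Ni replicate 1 had no read of 9 of the 156 miRNAs that averaged 100 rpm or more, miR-486b-5p among them. The part of red cells in miR-16-5p was not tested in any library.

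**Figure D1:**
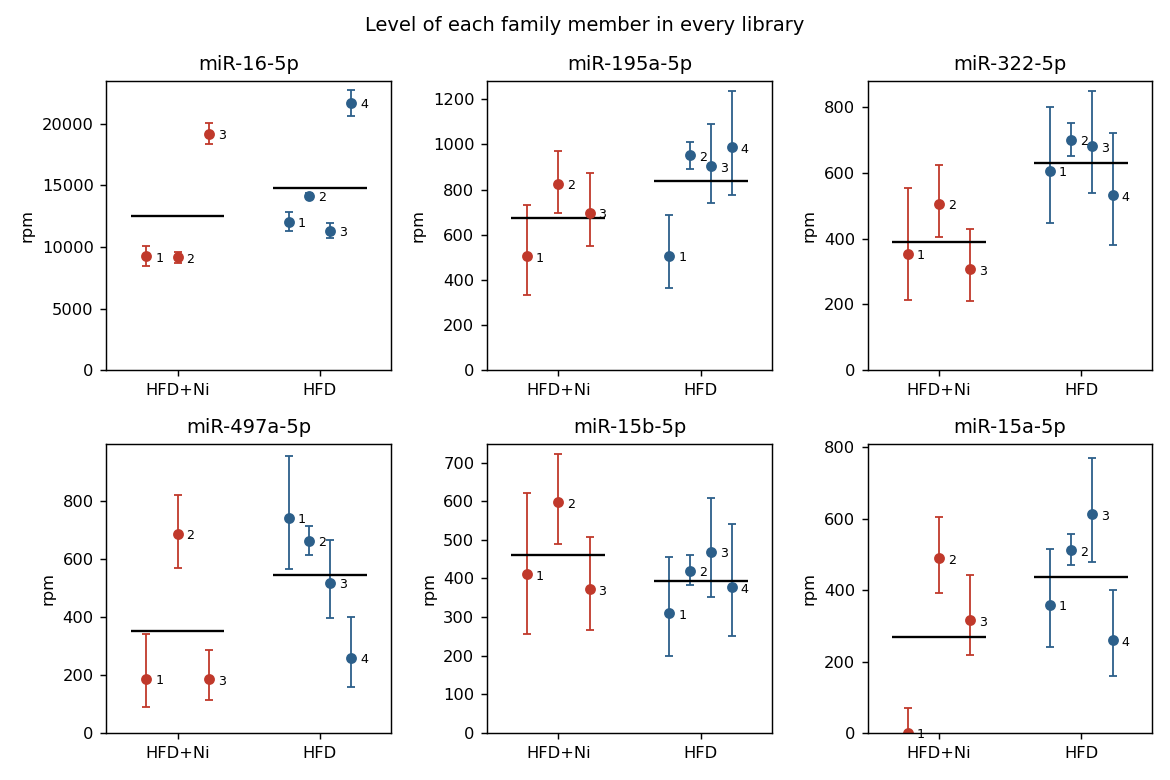
Level of each family member in rpm (y axis, each panel on its own scale from 0) in the HFD+Ni libraries (left, red) and the HFD libraries (right, blue). Points are libraries with their replicate number, bars are 95% Poisson counting intervals and black lines are group means. For miR-322-5p all HFD+Ni points lie below all HFD points, and miR-15a-5p is at 0 in HFD+Ni replicate 1.

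The other 5 members averaged between 364 and 767 rpm over the 7 libraries. Together they held 1455, 3104 and 1877 rpm in HFD+Ni replicates 1 to 3, against 2524, 3248, 3184 and 2415 rpm in HFD replicates 1 to 4. miR-16-5p exceeded miR-195a-5p in 7 of 7 libraries and miR-195a-5p exceeded miR-322-5p in 6 of 7. Below that the order of the means (miR-322-5p, miR-497a-5p, miR-15b-5p, miR-15a-5p) held in only 4 or 5 of 7 libraries for each neighbouring pair, so these 4 do not separate by level.

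miR-322-5p, of the X-linked cluster, was the only member whose groups did not overlap. Its level was 354, 506 and 307 rpm in HFD+Ni replicates 1 to 3, against 606, 701, 681 and 532 rpm in HFD replicates 1 to 4. The means were 389 ± 104 rpm in HFD+Ni (SD, n = 3) and 630 ± 76.9 rpm in HFD (SD, n = 4), 1.62-fold lower. Of the 387 miRNAs tested, 2.33% had every HFD+Ni library below every HFD library, and 1 of the 6 members did.

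The difference in miR-322-5p did not pass the test. Its log2 fold change was -0.72 (SE 0.40, 95% interval -1.60 to 0.16, limma adjusted p = 0.830). By unadjusted p it stood at place 35 of 387 (limma unadjusted p = 0.101). The nearest libraries of the groups, HFD+Ni replicate 2 with 89 reads and HFD replicate 4 with 41 reads, have overlapping 95% Poisson intervals (406 to 623 rpm in HFD+Ni replicate 2 and 382 to 722 rpm in HFD replicate 4). The direction was the same in each of 17 alternative settings, with a log2 fold change of -0.92 to -0.56 and an adjusted p of 0.688 to 0.918. DESeq2 gave an unadjusted p of 0.0465 (log2 fold change -0.67, adjusted p = 0.869).

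Of the marker lists, 3 had summed levels that also did not overlap between the groups, and 2 of these were lower in HFD+Ni like miR-322-5p. The sums of the fat, erythrocyte, striated muscle and epithelial lists overlapped. Yet 4 of 4 muscle markers and 5 of 6 fat markers also had a log2 fold change below 0, against 0 of 6 epithelial markers. The muscle marker miR-1a-3p alone was lower without overlap. How often sums of other miRNAs would not overlap was not tested. The 2 endothelial markers, miR-126a-3p and miR-126a-5p, summed to 12979 to 18852 rpm in HFD+Ni, against 20518 to 32381 rpm in HFD, and 2 of 2 had a log2 fold change below 0, although each alone overlapped between the groups. The 6 leukocyte markers summed to 2461 to 4707 rpm in HFD+Ni, against 4769 to 5964 rpm in HFD, and 6 of 6 had a log2 fold change below 0. Of them, 1 alone (miR-223-3p) did not overlap, beside 2.33% lower without overlap among all 387 miRNAs tested. The 6 testis and sperm markers summed to 910 to 1645 rpm in HFD+Ni, against 465 to 817 rpm in HFD, and 5 of the 5 that were tested had a log2 fold change above 0. Most of that sum was miR-34c-5p, which alone did not overlap. It was at 988, 813 and 1106 rpm in HFD+Ni replicates 1 to 3, against 780, 431, 749 and 467 rpm in HFD replicates 1 to 4. Each of the other testis and sperm markers was at 0 in some libraries. None of these markers is at 0 in every library, and their part in the miR-322-5p difference was not tested.

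Genes of the same X-linked cluster were mostly scarce. miR-503-5p, a relative whose seed differs at 1 base (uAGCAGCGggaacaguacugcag, capitals bases 2 to 8, with A8G from miR-16-5p to miR-503-5p), had 40 reads in all libraries together. miR-351-5p was the most abundant partner, at 0, 216 and 204 rpm in HFD+Ni replicates 1 to 3, against 346, 126, 136 and 90.9 rpm in HFD replicates 1 to 4. Its groups overlapped, and like miR-15a-5p it was unread in HFD+Ni replicate 1.

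miR-15a-5p was unread in 1 library and read in the other 6. It was at 0, 489 and 316 rpm in HFD+Ni replicates 1 to 3, against 359, 512, 613 and 260 rpm in HFD replicates 1 to 4. At the HFD mean of 436 rpm, HFD+Ni replicate 1 would have held 23.4 reads, and its 0 allows up to 3 reads or 55.9 rpm. Taken at that floor of 3 reads, this library lay 7.79-fold below the HFD mean, and less far below it at the Poisson bound. HFD+Ni replicates 2 and 3 averaged 402 rpm.

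The test result for miR-15a-5p rests on that library. The log2 fold change was -2.95 (SE 1.67, 95% interval -6.60 to 0.70, limma adjusted p = 0.830), and without HFD+Ni replicate 1 it was -0.07 (adjusted p = 0.969). Leaving out HFD+Ni replicate 2 instead gave -4.54 (limma unadjusted p = 0.0190, adjusted p = 0.711). Values near 0 make this scale depend on the pseudocount: the log2 fold change was -3.28 with a pseudocount of 0.5 and -2.18 with one of 5. On recovered reads, edgeR gave -0.74 (adjusted p = 0.838) and DESeq2 -0.65 (adjusted p = 0.949). Its sequence relative miR-15b-5p was read 22 times in HFD+Ni replicate 1.

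miR-15b-5p was the only member with a log2 fold change above 0. Its level was 410, 597 and 372 rpm in HFD+Ni replicates 1 to 3, against 309, 420, 468 and 377 rpm in HFD replicates 1 to 4. The groups overlapped, and the means were 460 ± 120 rpm in HFD+Ni (SD, n = 3) and 394 ± 67.5 rpm in HFD (SD, n = 4). Its log2 fold change was 0.21 (SE 0.43, 95% interval -0.74 to 1.15, limma adjusted p = 0.929). Leaving out HFD+Ni replicate 2 gave 0.0048, leaving out HFD+Ni replicate 3 gave 0.35 and leaving out HFD replicate 1 gave 0.10.

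The pair from chromosome 11 did not move as one. miR-195a-5p was at 503, 824 and 697 rpm in HFD+Ni replicates 1 to 3, against 507, 951, 902 and 987 rpm in HFD replicates 1 to 4. HFD replicate 1 and HFD+Ni replicate 1 were its low libraries, so the groups overlapped. The log2 fold change of miR-195a-5p was -0.29 (SE 0.40, 95% interval -1.16 to 0.58, limma adjusted p = 0.886). Leaving out HFD+Ni replicate 1 gave -0.10, and leaving out HFD replicate 1 gave -0.52.

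miR-497a-5p was at 186, 688 and 186 rpm in HFD+Ni replicates 1 to 3, against 742, 664, 519 and 260 rpm in HFD replicates 1 to 4. HFD+Ni replicates 1 and 3 and HFD replicate 4 were low and HFD+Ni replicate 2 was within the HFD range. The low HFD+Ni values rest on 10 and 20 reads. Its log2 fold change was -0.82 (SE 0.59, 95% interval -2.11 to 0.48, limma adjusted p = 0.830), and it was -1.44 without HFD+Ni replicate 2 (limma unadjusted p = 0.0333, adjusted p = 0.711). It was -0.50 without HFD+Ni replicate 1 and also -0.50 without HFD+Ni replicate 3.

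Within the same library, miR-497a-5p ran from 0.263 to 1.46 times the level of miR-195a-5p. The ratio was 0.370, 0.834 and 0.267 in HFD+Ni replicates 1 to 3, against 1.46, 0.698, 0.575 and 0.263 in HFD replicates 1 to 4. These ranges overlapped.

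**Figure D2:**
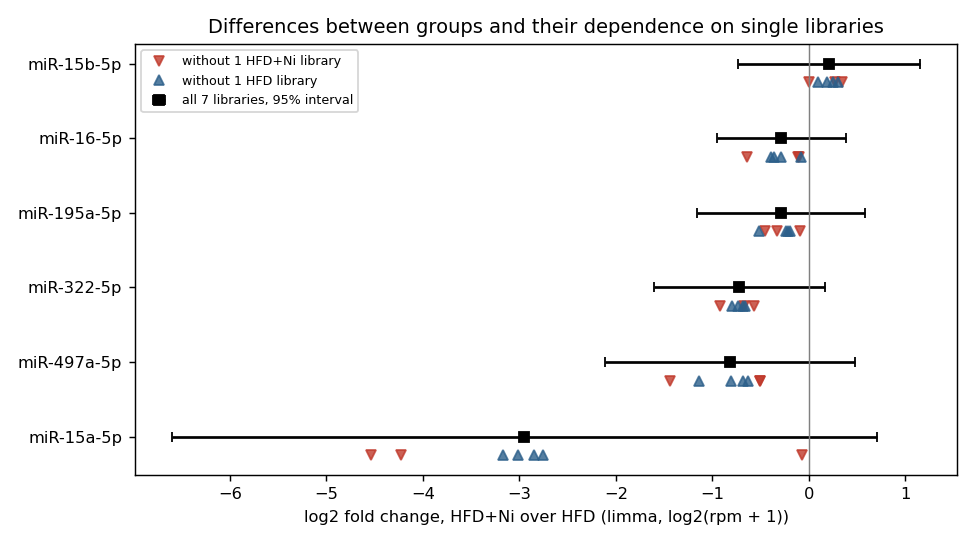
Log2 fold change of each member, HFD+Ni over HFD (x axis), with 95% intervals from limma on all 7 libraries (black squares). Triangles give the value with 1 HFD+Ni library (red) or 1 HFD library (blue) left out. Every interval includes 0, and miR-15a-5p moves from -2.95 to -0.07 when HFD+Ni replicate 1 is left out.

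Across the family, limma called 0 of 6 members at an adjusted p under 0.05 (background 0%) and 0 of 6 at an unadjusted p under 0.05 (background 2.84%, 11 of 387). At an unadjusted p under 0.05, edgeR also called 0 members and DESeq2 1, miR-322-5p. Of the 6 members, 5 had a log2 fold change below 0, beside 183 of 387 (47.3%) among all miRNAs tested. The median log2 fold change was -0.51 for the members and 0.04 for all miRNAs tested. Without HFD+Ni replicate 1 the members' median was -0.10. Scaling by TMM, which corrects for the composition of a library, shifted the median of all miRNAs by -0.12, and miR-15b-5p then stood at 0.08 while the 5 others stayed below 0.

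**Figure D3:**
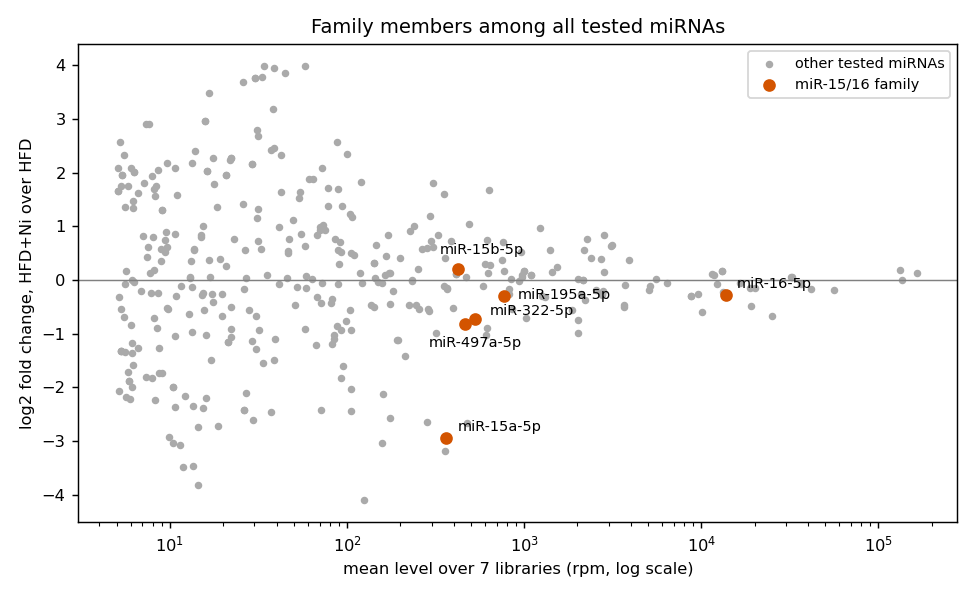
Log2 fold change, HFD+Ni over HFD (y axis), against the mean level over the 7 libraries in rpm (x axis, log scale) for the 387 miRNAs tested. Family members are orange and the others grey. miR-15a-5p lies at -2.95, and the other 5 members lie between -0.82 and 0.21.

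In the authors' deposited table, the 6 members had log2 fold changes from -0.70 (miR-322-5p) to 0.22 (miR-15b-5p) and an FDR of 1 each. The lowest p-value of a member in the authors' deposited table was 0.190, for miR-322-5p. None of the 6 is on the authors' deposited list of 15 changed miRNAs.

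The 5′ arm, which holds the seed, gave nearly all reads of the measured hairpins. The 3′ arm took 3.09% of the miR-195a reads (47 of 1521 reads, 95% exact interval 2.28% to 4.09%) and was found in 7 of 7 libraries. For miR-15b it took 3.36% (25 reads, 2.18% to 4.91%) and for miR-322 2.14% (23 reads, 1.36% to 3.20%). miR-497a had 2 reads of its 3′ arm against 993 of its 5′ arm, 0.201% (0.0244% to 0.724%). These pooled shares weigh the deepest library, HFD replicate 2, most. Of 18 opposite arms and cluster partners, 15 had a value and 9 reached a mean of 5 rpm, of which 4 had a log2 fold change below 0 and 5 above. limma called 0 of the 9 at an adjusted p under 0.05 (0 also at an unadjusted p under 0.05), and their median log2 fold change was 0.38. That median is the value of miR-322-3p, whose mean was lower in HFD+Ni (13.1 rpm, against 19.3 rpm in HFD). All of the 9 but miR-351-5p averaged at most 39.8 rpm in either group. At such levels unread libraries weigh on the log scale, so these directions carry little meaning.

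Members varied over libraries in different ways. The evenness of a pair was measured as the SD over libraries of the log2 ratio of their levels, here over the 6 libraries other than HFD+Ni replicate 1. miR-15b-5p and miR-195a-5p, from different chromosomes, kept the steadiest ratio (SD 0.33), followed by miR-15a-5p and miR-15b-5p (SD 0.37). Pairs made from neighbouring hairpins were among the less steady of the 15 pairs. miR-15b-5p with miR-16-5p had an SD of 0.71 (place 10), miR-15a-5p with miR-16-5p 0.89 (place 13) and miR-195a-5p with miR-497a-5p 0.97 (place 14). Each of these pairs holds miR-16-5p or miR-497a-5p. All pairs with either of them took places 7 to 15, neighbours or not, and all pairs without them places 1 to 6. The reads of miR-16-5p also come from both of its loci. Whether neighbouring hairpins vary together was therefore not tested by these places. The loosest pair was miR-16-5p with miR-497a-5p (SD 1.26). In HFD+Ni replicate 3 and HFD replicate 4, miR-16-5p was at its highest and miR-497a-5p at its lowest within the group. HFD+Ni replicate 1 was nearly tied with HFD+Ni replicate 3 in miR-497a-5p (186 rpm in both), but held miR-16-5p at only 9231 rpm.

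**Figure D4:**
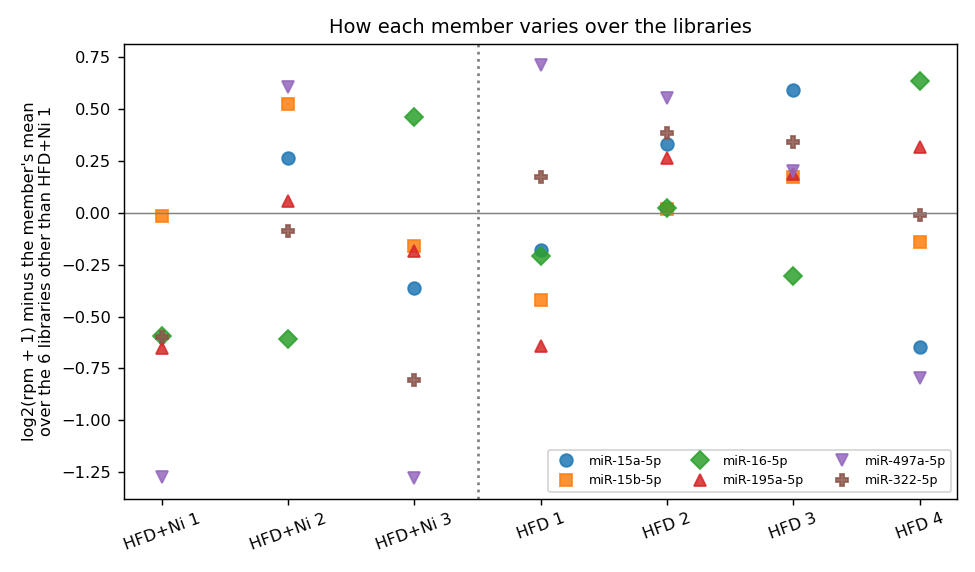
Deviation of each member's log2(rpm + 1) from its own mean over the 6 libraries other than HFD+Ni replicate 1 (y axis), for each library (x axis, HFD+Ni left of the dotted line, HFD right). miR-15a-5p, unread in HFD+Ni replicate 1, is left out there. miR-16-5p is highest and miR-497a-5p low in HFD+Ni replicate 3 and HFD replicate 4.

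Outside the family, likeness was taken as the same SD of the log2 ratio, over 7 libraries and 150 other miRNAs that averaged 100 rpm or more. miR-16-5p was most like let-7j (SD 0.20), miR-26b-5p (0.25) and let-7i-5p (0.26), against a median of 0.82 over the 150. miR-322-5p was most like the endothelial miR-126a-5p (0.26), then miR-361-3p (0.27) and miR-27a-3p (0.28). miR-195a-5p came nearest to miR-26b-5p (0.31), miR-26a-5p (0.32) and the endothelial miR-126a-3p (0.35). For miR-15b-5p these were miR-30e-5p (0.27), miR-29c-3p and miR-29a-3p (0.28 each). As miR-29c-3p and miR-29a-3p had nearly equal reads in every library (1850 and 1841 in HFD+Ni replicate 1), they are not separate neighbours. miR-497a-5p was closest to let-7d-3p and miR-30c-5p (0.42 each) and to miR-126a-5p (0.45). The nearest of miR-15a-5p were miR-139-5p (0.74), miR-142a-3p (0.80) and miR-351-5p (0.88), which are all unread in HFD+Ni replicate 1.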

How the data were processed

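Small RNA libraries of adipose vesicles were compared, 3 HFD+Ni with 4 HFD, in 1 labelled batch. The values the authors deposited are RPM (reads scaled to 1000000 miRNA reads): the table is named as TPM, but each column sums to that number and is made of whole multiples of 1 step per library, so whole reads could be recovered for 100% of values (tolerance 0.1 read). For each miRNA the deposited table has the authors' own p-value and FDR, and a log2 fold change whose sign is that of HFD+Ni over HFD. Per the submitters' processing notes, GRCm38 (mm10) and edgeR were used; no source used here names the aligner, counter or annotation. In the authors' list, 1 value column named for a further library matched no label and was not used.

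The groups were compared by limma (version 3.58.1, run in R 4.3.3) from log2(rpm + 1) values with a mean-variance trend, two-sided, over the 387 of 820 miRNAs that averaged 5 rpm or more, with Benjamini-Hochberg adjustment over all 387 and a threshold of 0.05. Alternatives were other pseudocounts and filters, TMM scaling, library weights, edgeR 4.0.16 and DESeq2 1.42.0 on recovered reads, a replicate block and libraries left out. The fits were also run on simulated data whose log2 changes exceeded those of all members but miR-15a-5p, so smaller changes were not covered. For low values the pseudocount affects the fold change. Intervals and floors (3 reads) cover counting error only, as PCR copies are not independent. The members and lists were chosen with earlier results of these data known. Named were the 6 members, miRNAs with the same seed, the listed opposite arms and cluster partners, and the 3 miRNAs most like each member. miR-497a-3p and further scarce partners are given by counts. Sequences are from RefSeq and loci from GENCODE M21, matched by name.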

Additional observations from a re-analysis of the deposited data

Results flagged for a closer look

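Of 18 sets of 4 HFD values checked (members, partners and family sums), 3 had a library far from the other 3. The rule's chance rate of about 1 in 20 holds for continuous values and cannot be applied to sets mostly at 0. Where the other 3 libraries are unread, any read in the remaining library sets the flag, and HFD replicate 2 was the deepest library. miR-15b-3p was at 18.9 rpm in HFD replicate 2 and unread in the other HFD libraries. miR-542-3p was at 10.4 rpm in HFD replicate 2 and unread in the other HFD libraries. miR-351-3p was at 17.0 rpm in HFD replicate 3, against 0 to 0.95 rpm in the other HFD libraries. Each is a scarce partner, and 1 read is worth 8.51 to 13.0 rpm in HFD replicates 1, 3 and 4. No member of the family itself was flagged in HFD, and groups of 3 were not checked.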

How the results depend on the processing

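Of the 6 members, 5 kept their direction in 17 alternative settings each, and none reached an adjusted p under 0.05 in any. miR-15a-5p reversed to 0.029 without both HFD replicate 2 and HFD+Ni replicate 1, where its lone unread library is left out. Members at an unadjusted p under 0.05 numbered 1 with no filter (miR-15a-5p, limma adjusted p = 0.477), 1 in DESeq2 (miR-322-5p), and 0 to 2 with 1 library left out: 2 without HFD+Ni replicate 2 (miR-15a-5p and miR-497a-5p) and 2 without HFD+Ni replicate 3 (miR-15a-5p and miR-16-5p). Over all miRNAs, 0 were at an adjusted p under 0.05 except 1 in DESeq2. At an unadjusted p under 0.05 there were 11, against 20 with no filter, 6 with a filter at 50 rpm, 28 in edgeR, 19 in DESeq2, 17 with library weights, 29 without both libraries and 6 to 24 with 1 library left out. Partners at an unadjusted p under 0.05 numbered 1 with no filter and 2 without both libraries.

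With the replicate number as a block, which leaves HFD replicate 4 without a partner, the log2 fold change was -0.08 for miR-16-5p and -0.80 for miR-322-5p, and 12 miRNAs were at an unadjusted p under 0.05. The deviations of same-numbered libraries from their group means correlated across 387 miRNAs, which are not independent, with r of 0.02, 0.19 and -0.10, so the numbers were not taken as pairs. The 6 libraries other than the deepest gave 0 to 145 reads for each member other than miR-16-5p, which limits the precision of those values.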
